A study of Homo sapiens with 14 samples.

Results

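The genes described here encode 9 subunits of the COMPASS family of histone H3 lysine 4 methyltransferases, namely SETD1A, SETD1B, WDR5, RBBP5, ASH2L, DPY30, MEN1, PAXIP1 and NCOA6. They were taken by gene symbol from the 55075 genes that each deposited table lists, and all 9 were found in all 6 tables. The series is RNA sequencing of 2 human T cell acute lymphoblastic leukemia (T-ALL) lines, CUTLL1 and CEM. Cells had been infected with retroviruses that carry a short hairpin against JMJD3 (the product of KDM6B), against UTX (the product of KDM6A) or, as the control, against Renilla luciferase, which human cells lack. All groups therefore share infection and a hairpin. Of the 14 labelled samples, 8 are CUTLL1, of which 3 carry shJMJD3, 2 shUTX and 3 shRenilla, and each of the 3 hairpins has 2 CEM samples. No time after infection and no number of hairpin sequences per target was given in the sources used here, so an effect of a target and an effect of 1 hairpin cannot be told apart.

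COMPASS complexes add methyl groups to lysine 4 of histone H3, a mark of active promoters and enhancers, while JMJD3 and UTX remove methyl groups from lysine 27, a mark of Polycomb silencing. Each complex joins 1 catalytic subunit to a shared core of WDR5, RBBP5, ASH2L and DPY30, without which the enzymes have little activity. SETD1A and SETD1B are the catalytic subunits that place most trimethylated lysine 4 at promoters. MEN1 encodes menin, a subunit of the complexes built on the enzymes KMT2A and KMT2B, and PAXIP1 and NCOA6 belong to the complexes built on KMT2C and KMT2D. The KMT2C and KMT2D complexes also contain UTX itself, so 1 of the 2 hairpins aims at a partner of PAXIP1 and NCOA6.

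SETD1A and MEN1 are 2 of the 4 members that were lower with shJMJD3 than with shRenilla in both lines after TMM, a scaling described below. By counts scaled to column totals, RBBP5 and NCOA6 were lower in both lines too. The promoters of SETD1A and MEN1 are shown as examples from the promoter table. WDR5, with 4 listed starts, is not shown, and SETD1B is not listed there. Each sequence is the 250 bases before the transcription start in the RefSeq table of build GRCh38.p14, in the direction of transcription, and MEN1 is shown at the outermost of its 2 listed starts. SETD1A lies at chr16:30957504-30957753 on the plus strand, and MEN1 at chr11:64810687-64810936 on the minus strand. Capitals mark matches, on either strand, to the GC box letters GGGCGG, to CCAAT or to the ETS-type letters CCGGAAG. Matches of the same letters may overlap, and matches of different letters did not.

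SETD1A: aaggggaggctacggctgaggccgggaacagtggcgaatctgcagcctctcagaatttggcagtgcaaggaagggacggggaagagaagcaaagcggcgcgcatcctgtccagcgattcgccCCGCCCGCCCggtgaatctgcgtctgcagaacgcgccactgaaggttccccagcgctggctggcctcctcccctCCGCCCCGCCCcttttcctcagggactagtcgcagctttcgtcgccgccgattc

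MEN1: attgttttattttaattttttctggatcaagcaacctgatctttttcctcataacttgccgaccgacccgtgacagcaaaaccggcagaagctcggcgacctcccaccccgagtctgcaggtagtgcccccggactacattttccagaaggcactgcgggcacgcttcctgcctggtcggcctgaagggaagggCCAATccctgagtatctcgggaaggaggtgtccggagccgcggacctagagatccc

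The SETD1A window held 4 GC box matches, in 2 overlapping pairs, and 23 CpG dinucleotides. The MEN1 window held 1 CCAAT match and 15 CpG dinucleotides, against a median of 11 over the 35116 promoters of the table. A GC box match occurs in 42.6% of those promoters, a CCAAT match in 32.0% and a CCGGAAG match, which neither window holds, in 8.52%. The matches describe these letters only, and nothing on binding was measured.

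A deposited count column was taken to hold the pooled samples of 1 hairpin in 1 line, since the sources do not tie columns to single samples. The 6 column totals used for most comparisons ran between 70280185 and 258014046 counts, and the 9 subunits had between 2044 and 29118 counts each, so counting error was small. A level is given as CPM, the count scaled to its column total. There is no spread between replicates within a line, and the 95% intervals below cover counting error only. The lowest column total belonged to CEM with shJMJD3. In CUTLL1 the shRenilla column was deposited with 258014046 counts beside shJMJD3 and with 144394369 counts beside shUTX, and the difference is called the remainder of the control. These columns cannot both hold the same samples, and which each holds is not stated. CUTLL1 levels with shRenilla are those of the larger column unless the smaller is named. Protein-coding genes took 93.0% to 94.1% of counts in CEM and 66.9% to 81.8% in CUTLL1, where small RNAs took between 1.97% and 11.7%. The 6 T cell markers together stood between 1914 and 2630 CPM in every column with none at 0, whereas 3 B cell markers reached at most 13.2 CPM in CEM and 0.0982 CPM in CUTLL1, with 1 of them at 0 in every column. Markers of myeloid cells summed to at most 0.866 CPM and those of fibroblasts to at most 1.31 CPM.

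Each target gene was lowest with its own hairpin in both lines. KDM6B stood at 52.2 CPM with shJMJD3, 198 CPM with shUTX and 206 CPM with shRenilla in CEM. In CUTLL1 it stood at 10.9 CPM with shJMJD3, 28.2 CPM with shUTX and 18.8 CPM with shRenilla (21.5 CPM in the smaller column), so it was higher with shUTX than with the control there. KDM6A stood at 51.5 CPM with shUTX, 86.7 CPM with shJMJD3 and 136 CPM with shRenilla in CEM, so it was also below the control with shJMJD3 there. In CUTLL1 KDM6A stood at 19.3 CPM with shUTX, 32.5 CPM with shJMJD3 and 35.8 CPM with shRenilla (43.0 CPM in the smaller column). The KDM6B difference was larger in CEM, with a log2 ratio of -1.71 against -0.64 in CUTLL1. That difference between lines was not tested.

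SETD1B and SETD1A, the catalytic subunits, were the members that stood lowest with shJMJD3 relative to the control in CEM, together with MEN1. In CUTLL1 the same 3 genes and WDR5 were lower with shJMJD3 by 1.29-fold to 1.42-fold. DPY30 was higher with shJMJD3 in both lines by its ratio to the control. PAXIP1 and NCOA6, from the complexes that hold UTX, lay close to their control levels with shJMJD3 after TMM scaling. By CPM, NCOA6 was lower, at 233 against 279 in CEM and 44.4 against 51.5 in CUTLL1. With shUTX no subunit was 1.5-fold apart from the control of its own table in either line. No subunit passed a test across both lines for any hairpin. In the main edgeR fits of 6 columns no gene did, the targets KDM6B and KDM6A included, so those fits say little about the subunits. The values above are those of single pooled columns.

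**Figure D1:**
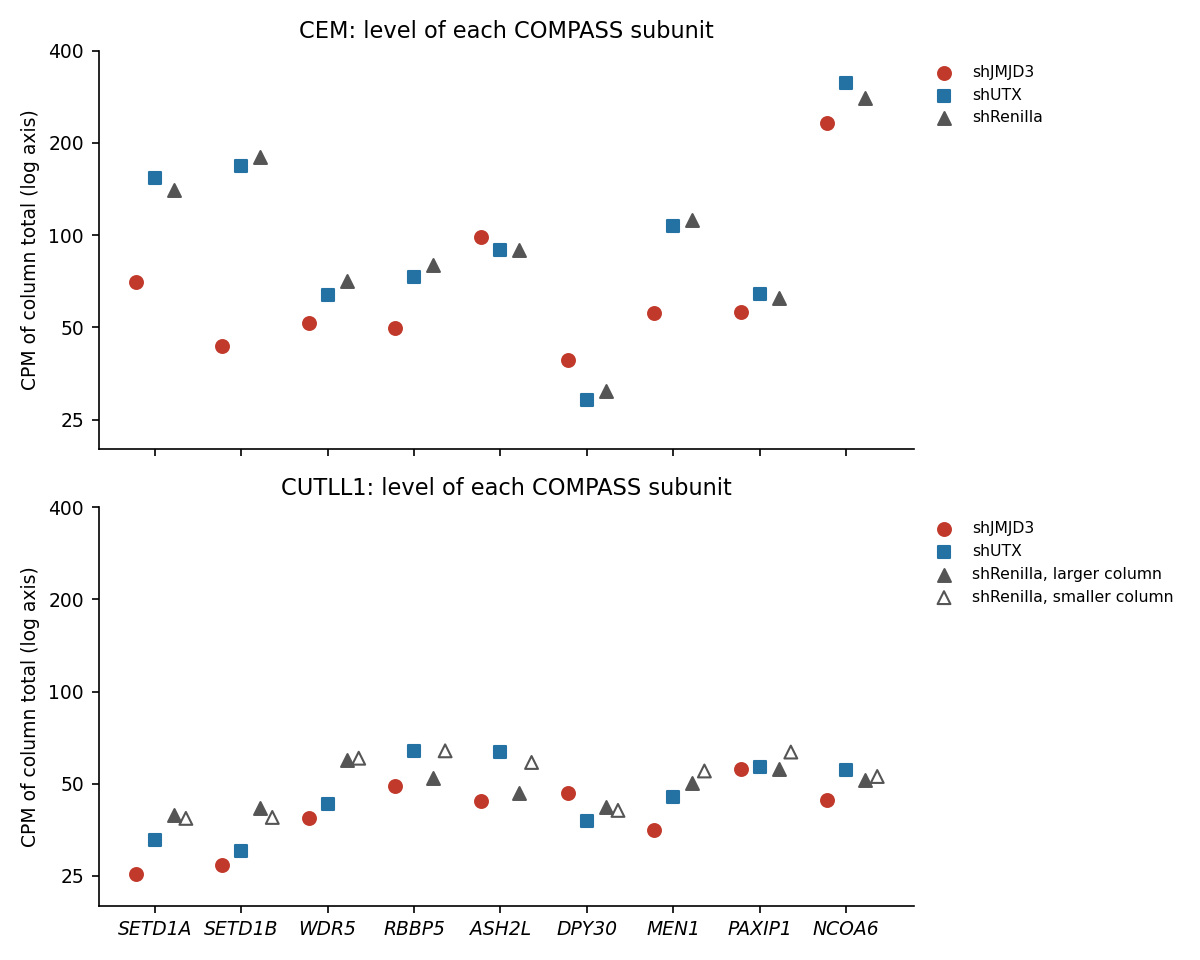
Level of each of the 9 subunits in every deposited column, in CPM of the column total on a log axis, with CEM above and CUTLL1 below. Each symbol is 1 pooled column (red circle shJMJD3, blue square shUTX, grey triangle shRenilla, open triangle the smaller CUTLL1 shRenilla column). In CEM the shJMJD3 values of SETD1A (70.2 CPM), SETD1B (43.5 CPM) and MEN1 (55.8 CPM) lie well below both other columns.

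SETD1B had 43.5 CPM with shJMJD3, 168 CPM with shUTX and 180 CPM with shRenilla in CEM. In CUTLL1 it had 27.2 CPM with shJMJD3, 30.1 CPM with shUTX and 41.8 CPM with shRenilla (38.8 CPM in the smaller column). In CEM the shJMJD3 column stood far below the others, which lay near each other. In CUTLL1 it was the lowest by CPM, but not after the scaling used for ratios, where shJMJD3 over shUTX was 0.18. After scaling with TMM, which sets the bulk of genes equal between columns, the log2 ratio of shJMJD3 over shRenilla was -1.78 (95% interval -1.83 to -1.72) in CEM, 3.43-fold lower. In CUTLL1 it was -0.48 (-0.53 to -0.43), 1.39-fold lower. Fewer transcripts per cell and a different mix of cells cannot be told apart in bulk RNA.

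SETD1A had 70.2 CPM with shJMJD3, 153 CPM with shUTX and 141 CPM with shRenilla in CEM. In CUTLL1 it had 25.3 CPM with shJMJD3, 32.8 CPM with shUTX and 39.6 CPM with shRenilla (38.6 CPM in the smaller column). Here shJMJD3 gave the lowest value of each line, while shUTX lay above shRenilla in CEM and below it in CUTLL1. The log2 ratio of shJMJD3 over shRenilla was -0.73 (-0.78 to -0.69) in CEM and -0.50 (-0.56 to -0.45) in CUTLL1.

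The balance among the subunits does not depend on how columns are scaled. In CEM, SETD1A and SETD1B together held 16.3% of all counts of the 9 subunits with shJMJD3, against 30.3% with shUTX and 30.7% with shRenilla. In CUTLL1 they held 14.3% with shJMJD3, against 14.7% with shUTX and 18.5% with shRenilla. The shRenilla share was 16.4% in the smaller CUTLL1 column and 21.8% in the remainder, which lie further apart than the 3 hairpins do. Of the counts of the 2 enzymes, SETD1B held 38.2% (exact 95% interval 37.2% to 39.3%) with shJMJD3 in CEM, against 52.3% with shUTX and 56.1% with shRenilla. In CUTLL1 SETD1B held 51.8% of them with shJMJD3, against 47.9% with shUTX and 51.3% with shRenilla, so the tilt from SETD1B toward SETD1A was seen in CEM and not in CUTLL1. The difference between lines was not tested.

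Among the core subunits, WDR5, the propeller protein that holds the enzymes to the core, had 51.6 CPM with shJMJD3, 63.6 CPM with shUTX and 71.1 CPM with shRenilla in CEM. In CUTLL1 it had 38.6 CPM with shJMJD3, 43.1 CPM with shUTX and 59.6 CPM with shRenilla (60.6 CPM in the smaller column). Both knockdowns lay below the control in both lines. By CPM shJMJD3 was the lowest in both, while the TMM-scaled log2 ratio of shJMJD3 over shUTX was -0.07 in CEM and 0.17 in CUTLL1. Its log2 ratio for shJMJD3 over shRenilla was -0.19 (-0.25 to -0.13) in CEM and -0.49 (-0.53 to -0.44) in CUTLL1.

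DPY30, the small subunit that binds ASH2L as a dimer, was the core subunit with the highest ratio of shJMJD3 over shRenilla in both lines. It had 39.1 CPM with shJMJD3, 28.9 CPM with shUTX and 31.0 CPM with shRenilla in CEM. In CUTLL1 it had 46.5 CPM with shJMJD3, 37.8 CPM with shUTX and 42.1 CPM with shRenilla (40.9 CPM in the smaller column). The shJMJD3 column was the highest in both lines. The log2 ratio of shJMJD3 over shRenilla was 0.61 (0.53 to 0.68) in CEM, 1.52-fold and just past the 1.5-fold mark, and 0.29 (0.24 to 0.33) in CUTLL1. Within the core, DPY30 held 16.3% of counts with shJMJD3 in CEM, against 11.3% with shUTX and 11.4% with shRenilla. In CUTLL1 it held 26.1% with shJMJD3, against 18.1% with shUTX and 21.0% with shRenilla, although the remainder of the control alone stood at 25.7%.

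ASH2L and RBBP5, which bind each other and contact the catalytic domain, differed between lines. ASH2L had 98.5 CPM with shJMJD3, 89.3 CPM with shUTX and 89.5 CPM with shRenilla in CEM, and 43.9 CPM with shJMJD3, 63.6 CPM with shUTX and 46.5 CPM with shRenilla (58.7 CPM in the smaller column) in CUTLL1. RBBP5 had 49.9 CPM with shJMJD3, 73.0 CPM with shUTX and 80.0 CPM with shRenilla in CEM, and 49.0 CPM with shJMJD3, 64.0 CPM with shUTX and 52.0 CPM with shRenilla (64.1 CPM in the smaller column) in CUTLL1. The shUTX values of both genes lay near those of the smaller shRenilla column. With shJMJD3 over shRenilla, the log2 ratios in CEM were 0.41 for ASH2L and -0.41 for RBBP5, in opposite directions. In CUTLL1 they were 0.06 and 0.05, both of which turn to negative values, -0.08 and -0.09, when columns are scaled to their totals.

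MEN1 had 55.8 CPM with shJMJD3, 107 CPM with shUTX and 112 CPM with shRenilla in CEM. In CUTLL1 it had 35.3 CPM with shJMJD3, 45.2 CPM with shUTX and 50.3 CPM with shRenilla (55.1 CPM in the smaller column). The order of hairpins by CPM was the same in both lines, and in CEM the shJMJD3 value was apart from both others. Some steps of that order were small. In CEM the log2 ratio of shUTX over shRenilla was -0.03 (-0.08 to 0.01), and in CUTLL1 the knockdowns lay close after TMM. The log2 ratio of shJMJD3 over shRenilla was -0.74 (-0.79 to -0.69) in CEM, 1.67-fold lower, and -0.37 (-0.41 to -0.32) in CUTLL1.

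PAXIP1, a protein with BRCT domains, ranged from 55.9 to 64.3 CPM over the 3 hairpins in CEM and from 55.8 to 56.7 CPM in CUTLL1, where the smaller shRenilla column had 63.5 CPM. NCOA6, a nuclear receptor coactivator, had 233 CPM with shJMJD3, 314 CPM with shUTX and 279 CPM with shRenilla in CEM. In CUTLL1 it had 44.4 CPM with shJMJD3, 55.4 CPM with shUTX and 51.5 CPM with shRenilla (52.8 CPM in the smaller column). For shJMJD3 over shRenilla the log2 ratio of PAXIP1 was 0.11 in CEM and 0.15 in CUTLL1, and that of NCOA6 was 0.01 in CEM and -0.07 in CUTLL1. With column totals in place of TMM, PAXIP1 and NCOA6 in CEM stood at -0.16 and -0.26, and no direction is given for them.

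**Figure D2:**
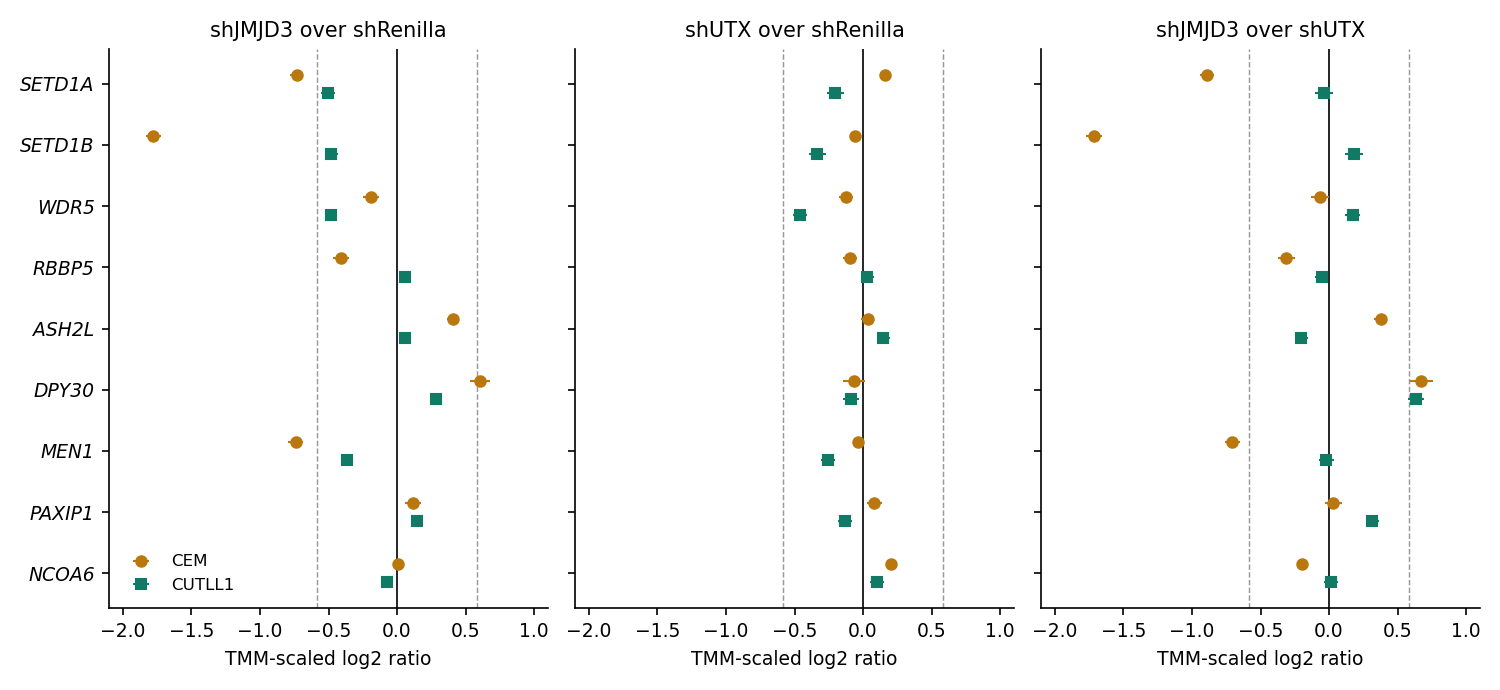
TMM-scaled log2 ratio of each subunit for shJMJD3 over shRenilla, shUTX over shRenilla and shJMJD3 over shUTX, with CEM as brown circles and CUTLL1 as green squares. Bars are 95% counting intervals, often smaller than the symbols, and dashed lines mark 1.5-fold. SETD1B in CEM lies at -1.78 and -1.72 in the shJMJD3 panels, and no point of the shUTX over shRenilla panel reaches a dashed line.

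The counts past a fold mark are set here against all genes. For shJMJD3 over shRenilla in CEM, 3 of the 9 subunits were lower by at least 1.5-fold (SETD1A, SETD1B and MEN1), as were 25.3% of the 16998 genes with at least 50 counts in either column. DPY30 was the only subunit at least 1.5-fold higher, as were 21% of those genes. In CUTLL1 no subunit was 1.5-fold apart, while 8.37% of 19772 genes were higher and 7.52% lower by that much. At a smaller mark, a log2 ratio of -0.32, 4 subunits were lower in each line, against 36.2% of genes in CEM and 18.2% in CUTLL1. SETD1A, SETD1B and MEN1 were lower by that smaller mark in both lines, as were 8.68% of 15882 genes. Adding WDR5, 4 subunits were lower by any amount in both lines, as were 32.6% of genes. The median log2 ratio of the subunits was -0.19 in CEM and -0.07 in CUTLL1, against medians over all genes of -0.06 in CEM and -0.01 in CUTLL1. Scaling to column totals shifts all ratios of this comparison by -0.27 in CEM and -0.14 in CUTLL1. Then 4 subunits were lower by at least 1.5-fold in CEM, as were 36.5% of genes, and 3 in CUTLL1, as were 11.8% of genes.

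The test across both lines (edgeR's quasi-likelihood test on 6 columns with line as a block and 2 residual degrees of freedom) called none of 24003 genes for shJMJD3 over shRenilla at a Benjamini-Hochberg adjusted p under 0.05. An unadjusted p under 0.05 was found for 936 genes, none of them a subunit, and DESeq2 called 110, again with no subunit. SETD1A had a log2 change of -0.59 (SE 0.23) with an edgeR adjusted p of 0.800, and it was lower in 2 of 2 lines. SETD1B had -1.02 (SE 0.45), MEN1 -0.52 (SE 0.21) and DPY30 0.47 (SE 0.20), each with the same adjusted p as SETD1A and with both lines on the same side.

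The authors' deposited table marks genes with a DEGseq p-value under 0.001 as its signature. For shJMJD3 against shRenilla it marks 9 of the 9 subunits in CEM and 8 in CUTLL1, but also 54.4% of all genes with a p-value in CEM and 40.2% in CUTLL1. Those tests compare the reads of pooled columns, not the conditions.

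In CUTLL1 the size of these differences varied with the control column. Against the smaller shRenilla column, the log2 ratio of shJMJD3 was -0.25 for SETD1A, -0.15 for SETD1B, -0.29 for WDR5 and -0.28 for MEN1. Against the remainder it was -0.77 for SETD1A, -0.82 for SETD1B, -0.67 for WDR5 and -0.40 for MEN1. These 4 genes were thus below the control whichever of its columns was used. Against the remainder 3 subunits were lower by at least 1.5-fold, as were 18.1% of genes. DPY30 stood at 0.55 against the smaller column and 0.02 against the remainder. The remainder over the smaller column, both shRenilla, gave 0.61 for SETD1A, 0.76 for SETD1B and 0.62 for DPY30. These 3 subunits were at least 1.5-fold apart within the control, as were 40.3% of 18546 genes, and small RNAs took 18.7% of the remainder against 1.97% of the smaller column. Which subunits these are turns on the scaling. With column totals SETD1A, SETD1B and DPY30 stood at 0.08, 0.23 and 0.09 within the control, and RBBP5 and ASH2L at -0.80 and -0.92. The part of library type in these ratios was not tested.

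**Figure D3:**
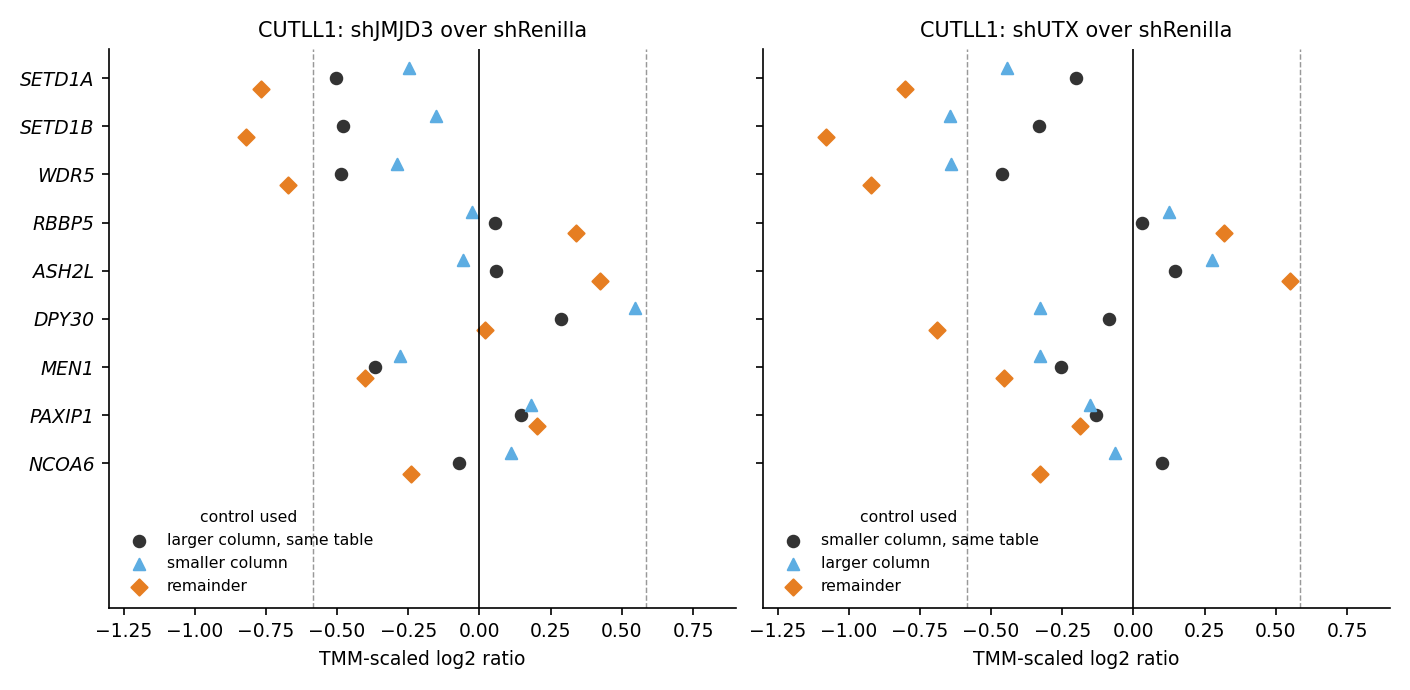
TMM-scaled log2 ratio of each subunit in CUTLL1 for shJMJD3 (left) and shUTX (right) over each of 3 control columns: the shRenilla column of the same table (black circle), the shRenilla column of the other table (blue triangle) and the remainder (orange diamond). SETD1A, SETD1B, WDR5 and MEN1 lie left of 0 in both panels for every control, while RBBP5, ASH2L and NCOA6 change side with the control on the left.

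The members also differ in base composition. The longest coding transcripts of SETD1A, SETD1B, MEN1 and WDR5 have 62.3%, 61.3%, 58.9% and 55.5% G and C, and those of ASH2L, PAXIP1, NCOA6, RBBP5 and DPY30 have 41.4% to 48.9%. The 4 GC-rich members are the 4 that were lower in both lines with shJMJD3 after TMM. With column totals, RBBP5 (-0.68 in CEM and -0.09 in CUTLL1) and NCOA6 (-0.26 and -0.21) were lower in both lines too. Across genes, the ratio of shJMJD3 over shRenilla had a Spearman correlation with GC content of -0.11 over 12518 protein-coding genes in CEM and -0.10 over 12941 in CUTLL1. After the median ratio at like GC content was taken off, a step chosen after seeing the data, SETD1B stood at -1.69, MEN1 at -0.68 and SETD1A at -0.58 in CEM. In CUTLL1 they stood at -0.42, -0.33 and -0.41. In CEM 2 subunits, SETD1B and MEN1, were then lower by at least 1.5-fold, as were 21.3% of genes, and DPY30 stood at 0.53. KDM6B, the target, has 62.4% G and C. The part of GC content in the result was otherwise not tested.

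**Figure D4:**
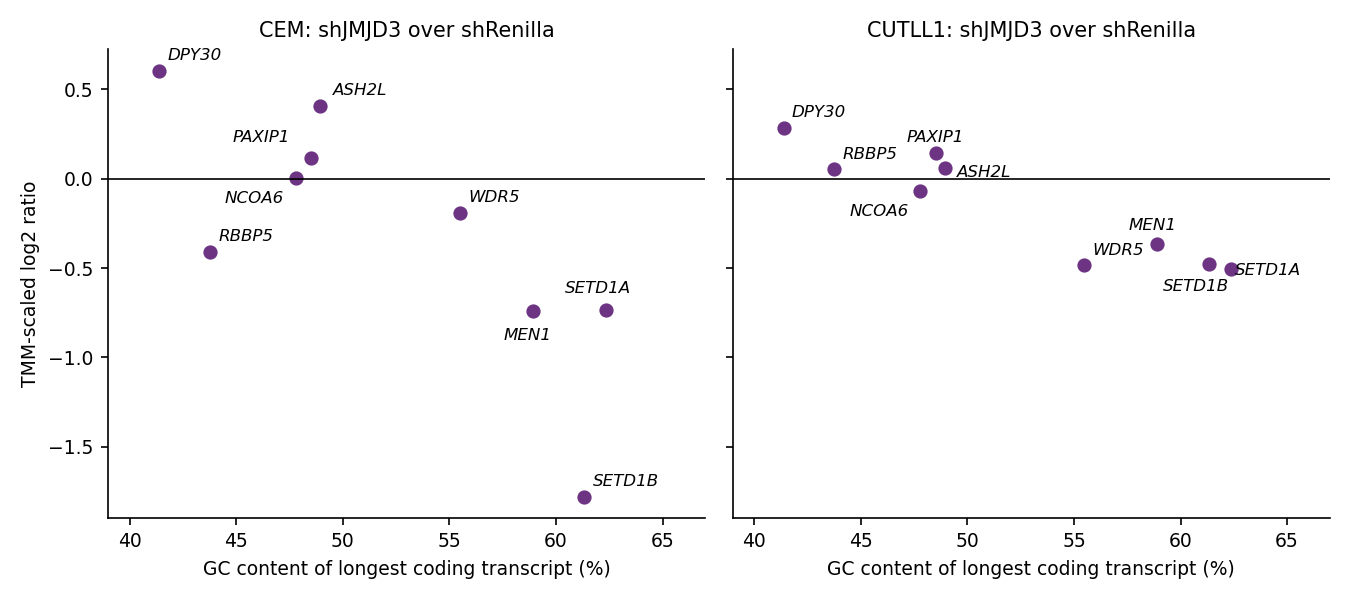
TMM-scaled log2 ratio of shJMJD3 over shRenilla against the GC content of the longest coding transcript, for the 9 subunits in CEM (left) and CUTLL1 (right). Each point is 1 gene. The 4 genes from 55.5% to 62.3% GC lie below 0 in both panels, and SETD1B in CEM lies far below the others at -1.78.

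With shUTX, WDR5 had the lowest ratio to the control in both lines, and NCOA6 was on the higher side in both against the control of the same table. In CEM the log2 ratio of shUTX over shRenilla ran from -0.12 for WDR5 to 0.20 for NCOA6, and in CUTLL1 from -0.46 for WDR5 to 0.15 for ASH2L. The median over the subunits was -0.03 in CEM and -0.13 in CUTLL1, against 0.00160 and -0.02 over all genes. No subunit was 1.5-fold apart, while 3.33% of genes were higher and 4.02% lower by that much in CEM, and 3.38% were higher and 2.35% lower in CUTLL1. NCOA6, a partner of UTX, stood at 0.20 (0.18 to 0.23) in CEM and 0.10 (0.05 to 0.15) in CUTLL1, and PAXIP1 at 0.08 in CEM and -0.13 in CUTLL1. In CUTLL1 against the larger control column, SETD1B and WDR5 both stood at -0.64, past 1.5-fold, as 18.3% of genes were lower by that much, and NCOA6 turned to -0.07. Against the remainder, 4 subunits were lower by at least 1.5-fold, as were 24.6% of genes. Across lines edgeR called none of 23112 genes, 39 had an unadjusted p below 0.05 and DESeq2 called 4, none of them a subunit. Every subunit had an edgeR adjusted p of 1, and KDM6A, the target of shUTX, was not called by this fit either.

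The direct comparison of shJMJD3 with shUTX gave different values in the lines, and that difference was not tested. In CEM, SETD1B stood at -1.72 (-1.77 to -1.66), SETD1A at -0.89 (-0.94 to -0.84) and MEN1 at -0.71 (-0.76 to -0.65). In CUTLL1 these genes stood at 0.18, -0.04 and -0.02 after TMM. Under that scaling the knockdowns lay close to each other there and both below shRenilla. The authors' deposited normalized log2 ratios in CUTLL1 were -0.15 for SETD1B, -0.37 for SETD1A and -0.35 for MEN1, so the closeness depends on the scaling. In CEM these 3 subunits were lower by at least 1.5-fold, against 23.8% of 16229 genes. DPY30 alone was at least 1.5-fold higher with shJMJD3 in CEM, as were 21.9% of genes, and it was so in CUTLL1 too, as were 19.4% of 18287 genes there. Its log2 ratio was 0.67 (0.59 to 0.76) in CEM and 0.63 (0.58 to 0.69) in CUTLL1, and 3.9% of 15113 genes were higher by at least 1.5-fold in both lines. With column totals these values become 0.44 and 0.30, still positive but under 1.5-fold. Small RNAs took 11.7% of counts with shJMJD3 and 2.58% with shUTX in CUTLL1. The remainder over the smaller shRenilla column, which also differ in small RNAs, gave a TMM-scaled 0.62 for DPY30. The part of library type in the CUTLL1 ratio was not tested. In CUTLL1, 6.2% of genes and no subunit were lower by at least 1.5-fold, and the shift to column totals is -0.33, larger than most ratios of the subunits there. Under that scaling the ratios of SETD1B, WDR5, PAXIP1 and NCOA6 in CUTLL1 change sign.

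Across lines, DPY30 with shJMJD3 over shUTX had a log2 change of 0.59 (SE 0.20), with an edgeR p of 0.0304 and an adjusted p of 0.590. It was higher in 2 of 2 lines. None of 24003 genes was called by the main edgeR fit. Of the 1945 genes whose unadjusted p lay below 0.05, DPY30 was the only subunit. DESeq2 called 287 genes and no subunit. This comparison shares its shJMJD3 columns with that against shRenilla, so the values are not independent of those above.

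Between the lines, unlike between hairpins, some subunits passed the test. In CUTLL1, NCOA6, SETD1A, SETD1B and MEN1 were lower than in CEM and DPY30 was higher, all past the test over the 3 hairpins. Its p-values measure the spread between pooled columns of 3 hairpins, not between replicate cultures of a line. NCOA6 had 44.4 to 55.4 CPM in CUTLL1, against 233 to 314 CPM in CEM. The groups lay far apart, with an edgeR log2 change of -2.14 (SE 0.16, adjusted p 0.00218), and it was lower in 3 of 3 hairpins. SETD1A had 25.3 to 39.6 CPM in CUTLL1 and 70.2 to 153 CPM in CEM, without overlap, and its log2 change was -1.54 (SE 0.20, edgeR adjusted p 0.00721). SETD1B had 27.2 to 41.8 CPM in CUTLL1 and 43.5 to 180 CPM in CEM. Its log2 change was -1.46 (SE 0.38, edgeR adjusted p 0.0384), but the highest CUTLL1 value, with shRenilla, nearly reached the CEM value with shJMJD3.

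MEN1 had 35.3 to 50.3 CPM in CUTLL1 and 55.8 to 112 CPM in CEM, with a log2 change of -0.71 (SE 0.17, edgeR adjusted p 0.0327). DPY30 had 37.8 to 46.5 CPM in CUTLL1 and 28.9 to 39.1 CPM in CEM, which overlap, with a log2 change of 0.67 (SE 0.16, edgeR adjusted p 0.0324). ASH2L, at -0.56 (SE 0.20), did not pass with an edgeR adjusted p of 0.0792. PAXIP1 at 0.20, WDR5 at -0.10 and RBBP5 at 0.03 had adjusted p-values of 0.315, 0.628 and 0.900. Of all 24003 genes, 17.8% were called lower and 19% higher in CUTLL1, against 4 and 1 of the 9 subunits. The median log2 change of the subunits was -0.56, against 0.11 over all genes. NCOA6 was called under all 8 alternatives, SETD1A under 7, MEN1 under 6, SETD1B under 5 and DPY30 under 4. Without the shRenilla columns SETD1A had an edgeR adjusted p of 0.0555, and NCOA6 was then the only subunit called. Without the shUTX columns, SETD1B, MEN1 and DPY30 had adjusted p-values of 0.0545, 0.121 and 0.106. With column totals, DPY30 stood at 0.36 (edgeR adjusted p 0.138). The lines also differ in the share of small RNAs, which was at most 0.0486% in CEM, so line and library type cannot be told apart.

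**Figure D5:**
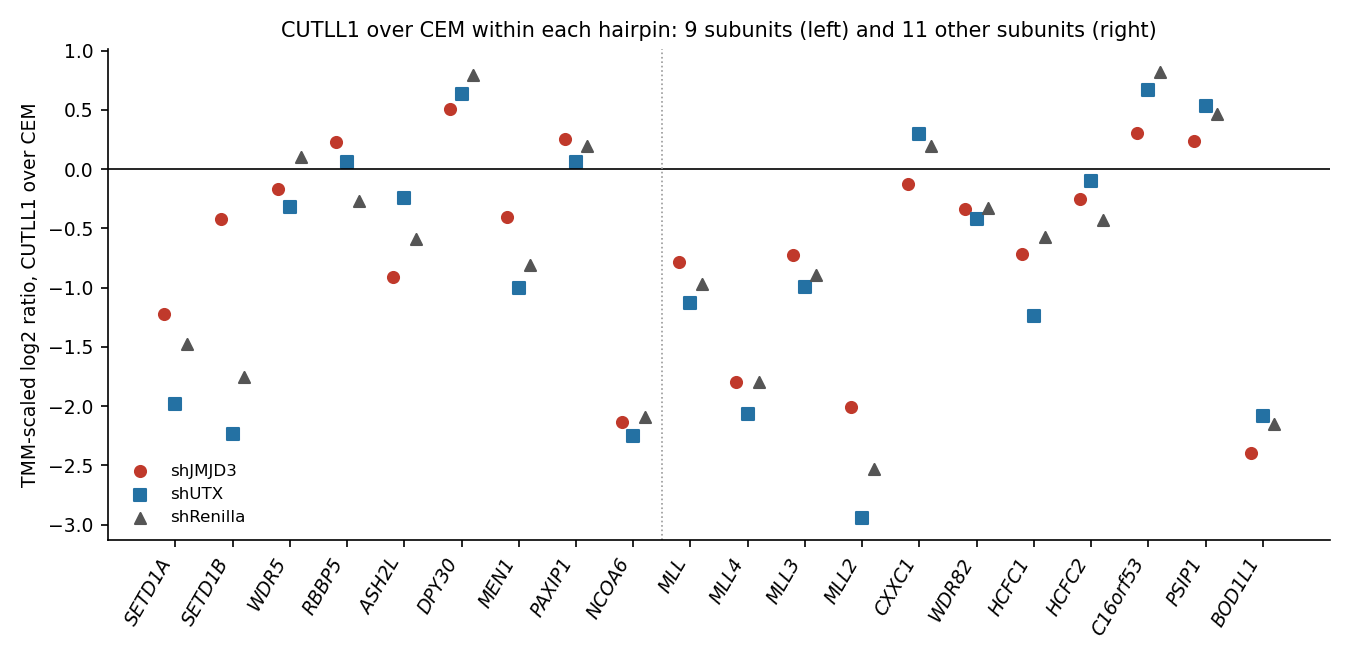
TMM-scaled log2 ratio of CUTLL1 over CEM within each hairpin (red circle shJMJD3, blue square shUTX, grey triangle shRenilla) for the 9 subunits, left of the dotted line, and 11 other subunits of these complexes, right of it, under their deposited symbols. NCOA6 lies between -2.26 and -2.09 with all 3 hairpins, whereas SETD1B is at -0.43 with shJMJD3 and at -2.23 with shUTX.

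The hairpin mattered most to this contrast for SETD1B. With shJMJD3 its log2 ratio of CUTLL1 over CEM was -0.43, against -2.23 with shUTX and -1.76 with shRenilla. NCOA6 kept within a narrow band, at -2.14 with shJMJD3, against -2.26 with shUTX and -2.09 with shRenilla. RBBP5 and WDR5 changed sign among hairpins.

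Levels of different genes can be set beside each other only per length of gene model, here CPM per kilobase of merged exons. In CEM, NCOA6 stood at 20.9 to 28.2 CPM per kilobase and MEN1 at 13.1 to 26.5, while PAXIP1 stood lowest in median at 5.80 to 6.67. SETD1A at 10.3 to 22.4, SETD1B at 5.23 to 21.7, WDR5 at 14.2 to 19.6, RBBP5 at 11.3 to 18.2, ASH2L at 15.1 to 16.7 and DPY30 at 10.5 to 14.2 lay between them. These ranges over hairpins overlap for each pair of neighbours in the order of medians except ASH2L and DPY30, and DPY30 and PAXIP1. In CUTLL1, DPY30 led at 13.8 to 16.9 CPM per kilobase, with WDR5 at 10.6 to 16.4 and RBBP5 at 11.1 to 14.5 next. MEN1 at 8.32 to 11.8 and ASH2L at 7.43 to 10.8 followed, then PAXIP1, below both and without overlap, at 5.79 to 5.88. SETD1A at 3.70 to 5.79, NCOA6 at 3.99 to 4.98 and SETD1B at 3.27 to 5.02 formed the low end with overlapping ranges. This order depends on the length used. Per kilobase of the longest coding transcript, a choice made after seeing the data, DPY30 had the highest median of the 9 in both lines, 43.8 in CEM and 59.4 in CUTLL1. MEN1 at 33.9 and then NCOA6 were next in CEM, and ASH2L at 15.1 and PAXIP1 at 14.6 in CUTLL1. NCOA6, SETD1A and SETD1B made up the low end in CUTLL1 under both lengths.

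Of 11 other subunits of the same complexes, MLL2 (the deposited symbol of KMT2D, a catalytic subunit partnered with UTX) was the only one 1.5-fold apart between hairpins in any table. It had 267 CPM with shJMJD3, 664 CPM with shUTX and 628 CPM with shRenilla in CEM. In CUTLL1 it had 55.5 CPM with shJMJD3, 72.8 CPM with shUTX and 85.4 CPM with shRenilla (72.2 CPM in the smaller column). Within the CUTLL1 control, the remainder over the smaller column gave a TMM-scaled log2 ratio of 1.03 for MLL2. The log2 ratio of shJMJD3 over shRenilla was -0.97 in CEM and -0.48 in CUTLL1. The median of the 11 for this ratio was -0.17 in CEM and -0.18 in CUTLL1. Between lines, 6 of the 11 were called lower in CUTLL1 and 0 higher, against 17.8% and 19% of all genes. MLL2 was lower in CUTLL1 by -2.47 (SE 0.24, edgeR adjusted p 0.00386) and MLL4, the deposited symbol of KMT2B, by -1.86 (SE 0.15, edgeR adjusted p 0.00266). BOD1L1, a SETD1A partner, was lower by -2.19 (SE 0.18, edgeR adjusted p 0.00268).

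Among 10 genes listed here as targets of menin and MLL1, 7 had at least 50 counts in either column of the shJMJD3 over shRenilla comparison in CEM and 7 in CUTLL1. They are not the same 7, since HOXA10 was counted in CEM alone and MEIS1 in CUTLL1 alone. In CEM 3 passed the 1.5-fold mark upward and 1 downward, against 21% and 25.3% of all genes. In CUTLL1 0 passed it upward and 2 downward, against 8.37% and 7.52% of all genes. No gene with enough counts in both lines passed it alike in both. MEIS1 stood at -0.77 in CUTLL1 and, below the count minimum, at -0.72 in CEM with a counting interval of -1.76 to 0.12, and it is named here after its values were seen. The median log2 ratio of the 7 in each line was 0.20 in CEM and -0.27 in CUTLL1. Of 5 H3K4 demethylases, which remove the mark that COMPASS places, 2 were at least 1.5-fold higher with shJMJD3 in CEM, as were 21% of all genes, and none in CUTLL1, where 8.37% of all genes were, with medians of 0.18 and -0.01.

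SETD1B had the widest range over the 6 columns of the 9 subunits. The genes whose log2 level followed it most closely, among 11305 genes with at least 200 counts in the columns, were C19orf6 (Pearson r 0.999), CHPF2 (0.999) and MCOLN1 (0.997). These correlations rest on 6 points that share 2 lines and are given as a description.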

How the data were processed

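The authors deposited 6 tables, for each line and each pair of hairpins. Each holds, per the file headers, raw read counts of both hairpins, log2 ratios, a score (a z-score) and p-values with q-values. The labels name DEGseq as the tool. CASAVA, TopHat and build hg19 are named in the submitters' processing notes, without versions. The sources used here name no counting program and do not say whether strand was used in counting. RNA was polyA-selected or ribosome-depleted, made into stranded libraries and read as 50-nt single reads, per the labels' protocols, and which sample had which is not given.

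Ratios within a line were scaled with TMM (edgeR 4.0.16, R 4.3.3), with a prior count of 2, among genes with at least 50 counts in either column. Ratios have exact binomial 95% intervals and shares exact Clopper-Pearson ones. A member counts as apart at 1.5-fold. The test over both lines was edgeR's quasi-likelihood fit of 6 columns with line as a block, with p-values adjusted after Benjamini and Hochberg and a threshold of 0.05. Its p-values measure the spread between pooled columns. A check on simulated data planted changes larger than any hairpin difference of the subunits, so it does not cover changes of their size. The CUTLL1 shRenilla column of the same table served each ratio, and the larger one served the fits that involve shJMJD3 and the lines. The remainder is the larger minus the smaller column. DESeq2 1.42.0 was an alternative.

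Lengths and GC content come from GENCODE release 29, and promoters from the RefSeq table, which lists SETD1A, WDR5, RBBP5 and MEN1. Named genes were all 9 members, both targets, other subunits 1.5-fold apart in any table, listed targets and demethylases 1.5-fold apart in both lines, and the 3 genes most correlated with the widest-ranging member. MLL4, BOD1L1, HOXA10 and MEIS1 are named outside this rule. The rule that sets the members uses gene symbols and no values, but members, lists and tests were chosen with earlier results of these data known.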

Additional observations from a re-analysis of the deposited data

Results flagged for a closer look

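In 6 cases a subunit had log2 ratios of opposite sign in the lines, each with a 95% counting interval that leaves out 0. With shJMJD3 over shRenilla, RBBP5 stood at -0.41 in CEM and 0.0547 in CUTLL1. With shUTX over shRenilla, SETD1A stood at 0.16 in CEM and -0.20 in CUTLL1, and PAXIP1 at 0.0838 in CEM and -0.13 in CUTLL1. With shJMJD3 over shUTX, SETD1B stood at -1.72 in CEM and 0.18 in CUTLL1, WDR5 at -0.0654 in CEM and 0.17 in CUTLL1, and ASH2L at 0.38 in CEM and -0.20 in CUTLL1. With 1 pooled column per hairpin and line, the differences between lines were not tested, and the CUTLL1 values of RBBP5, SETD1B and WDR5 change sign when columns are scaled to their totals.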

How the results depend on the processing

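Of 306 ratios of single subunits under alternatives, 287 kept their sign. The 306 also count settings that change little at these depths, such as a prior count of 0.5. All 45 of those at least 1.5-fold apart kept their sign, but none of them was set against another control column. The largest scaling shift was -0.33, short of the 1.5-fold mark at a log2 of 0.58, so scaling could not turn them. With column totals, the subunits' median for shJMJD3 over shRenilla was -0.46 in CEM and -0.21 in CUTLL1. In CUTLL1 3 subunits were then 1.5-fold apart in place of 0, while 11.8% of genes were lower and 6.07% higher by that much. For shJMJD3 over shUTX the median was -0.43 in CEM and -0.32 in CUTLL1. There 0 subunits in place of 1 were apart in CUTLL1, while 21.3% of genes were lower and 15.3% higher. With the GC correction, added after seeing the data, the median in CEM was -0.11 for shJMJD3 over shRenilla and -0.14 for shJMJD3 over shUTX. For shJMJD3 over shRenilla 2 subunits were then apart in place of 4, while 21.3% of genes were lower and 22% higher by 1.5-fold. Against the remainder of the CUTLL1 control, the median was -0.24 with 3 subunits apart for shJMJD3, where 18.1% of genes were lower and 21.2% higher. For shUTX it was -0.45 with 4 apart, where 24.6% of genes were lower and 21.6% higher. Against the larger control it was -0.33 with 2 apart for shUTX, where 18.3% of genes were lower and 6.26% higher. At a log2 mark of 0.32, 4 subunits were apart in CUTLL1 for shJMJD3 over shRenilla, where 18.2% of all genes were lower and 17.4% higher by that much. For shUTX over shRenilla 2 were apart in CUTLL1, where 10.1% of all genes were lower and 10.9% higher by that much.

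Across lines the main edgeR fits called 0 genes for each hairpin comparison. DESeq2 called 110 for shJMJD3 over shRenilla, 4 for shUTX over shRenilla and 287 for shJMJD3 over shUTX. A fit of 4 columns called 16 for shUTX over shRenilla, and for shJMJD3 over shUTX column totals gave 6 and no filter gave 55. No subunit was among any of these calls. For CUTLL1 over CEM, 8835 genes were called, and leaving out each hairpin gave 2004 to 10304, the lowest without shRenilla. In that comparison ASH2L passed with column totals, at -0.87 (edgeR adjusted p 0.0233), DPY30 had an adjusted p of 0.0588 with no filter and SETD1B one of 0.0583 with the smaller CUTLL1 control column.

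No paired analysis was possible because the deposited columns carry no replicate numbers, and which samples each column holds is not stated. For this reason single replicates could not be left out. Each hairpin comparison has 1 column per line, so leaving out a line leaves a value with no test. Depth did not limit the subunits, which had at least 2044 counts in each column used.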
